A study of Homo sapiens with 4 samples.

Results

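RBBP4 and RBBP7 encode the WD-repeat histone chaperones that sit in Polycomb repressive complex 2 (PRC2), and each of them overlaps another coding gene on the opposite strand. RBBP4 runs into SYNC, and RBBP7 runs into TXLNG. The 4 rows described here were taken by symbol from a table of counts per gene with 59385 rows, and all 4 passed the filter on low counts that left 24431 rows for testing. RNA was sequenced from C4-2, an established human line of prostate cancer cells that descends from LNCaP and makes the androgen receptor. One group carried a small interfering RNA against EZH2, the catalytic subunit of PRC2 (siEZH2, n = 2 libraries), and the other a control siRNA in its place (siCTRL, again n = 2). All libraries came from the same line, grown in serum-containing medium and prepared with a stranded total RNA kit. The labels give neither the time after transfection nor the siRNA sequences, and they do not say whether replicates were separate cultures, so p-values reflect only how far these samples spread, and that spread may be technical.

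RBBP4 and RBBP7, also known as RbAp48 and RbAp46, fold into closely related beta-propellers that bind histones H3 and H4. They are shared by PRC2 and by other chromatin complexes: the NuRD and SIN3 deacetylase complexes, the NURF remodeler, the MuvB core of the DREAM cell-cycle repressor, the CAF-1 assembly factor (RBBP4) and the HAT1 acetyltransferase (RBBP7). Their neighbours have no known part in these complexes. SYNC encodes syncoilin, an intermediate filament protein of muscle that binds desmin and alpha-dystrobrevin, and TXLNG encodes gamma-taxilin, a coiled-coil protein that binds syntaxins.

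Both pairs are transcribed towards each other and meet at their ends, but they share very different lengths of exon. On GRCh38, with GENCODE release 29, RBBP4 lies on chromosome 1 from 32651142 to 32686211 on the plus strand. SYNC lies on the minus strand from 32680360 to 32703596. Their exons have 1706 bases in common, in 3 segments of 1501, 80 and 125 bases, which is 48.9% of the exonic bases of SYNC and 18.0% of those of RBBP4. Of the coding bases of SYNC, 275 lie within RBBP4 exons, against 18 coding bases of RBBP4 within SYNC exons. The shared part is not in every RBBP4 transcript. It makes up 1706 of the 7943 bases of the principal isoform RBBP4-202, whereas RBBP4-204 ends before SYNC and shares 0 bases with it, and 4 of 19 annotated RBBP4 transcripts enter SYNC exons. On the X chromosome, TXLNG occupies 16786427 to 16844519 on the plus strand and RBBP7 occupies 16839283 to 16870414 on the minus strand. Here 1 segment of 179 bases is common to both (16844341 to 16844519). That is 4.01% of TXLNG exons and 2.42% of RBBP7 exons, all of it untranslated, and 1 of 12 RBBP7 transcripts reaches it. The deposited row length equals the GENCODE 29 exonic length for RBBP4 (9470 bases). For the other 3 rows the deposited lengths were 3722 bases for SYNC, 4455 for TXLNG and 7340 for RBBP7, against 3487, 4460 and 7392 in GENCODE 29. The authors may thus have used another release.

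A stretch of the shared bases is printed because reads from it can be told apart by strand alone. The same 30 base pairs (chr1:32684353-32684382) read in SYNC as coding sequence of transcript SYNC-202 and in RBBP4, as the reverse complement, as untranslated sequence after the coding region of RBBP4-202.
SYNC strand: gaacagctggaggaaatggaagaacgccag
RBBP4 strand: ctggcgttcttccatttcctccagctgttc

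**Figure D1:**
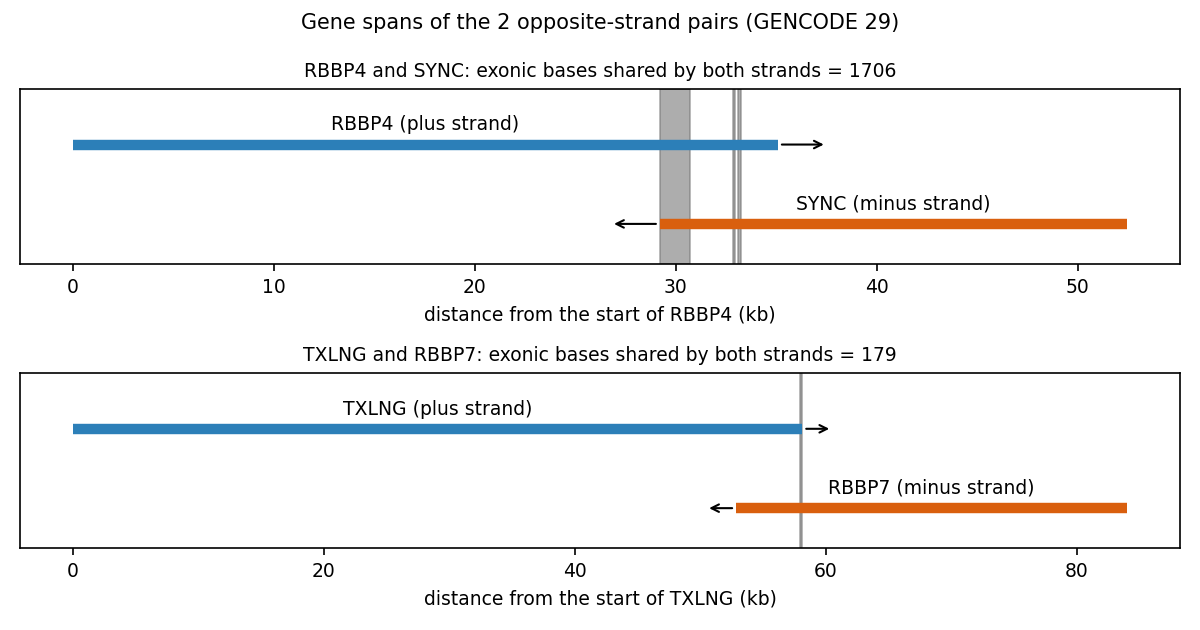
Spans of the 4 genes on their strands, drawn to scale against distance in kb from the start of the plus-strand gene, with arrows in the direction of transcription. Grey bands mark exonic bases that both strands use: 1706 in the pair RBBP4 and SYNC, and 179 in the pair TXLNG and RBBP7.

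The series as a whole sets the frame for these rows. Total counts ran from 6162123 to 6362561 in the siEZH2 libraries and from 6818482 to 6867542 in the siCTRL libraries. Rows with at least 10 counts numbered 26049 and 28156 in siEZH2 libraries. In siCTRL libraries they numbered 16480 and 22507, fewest in replicate 1. TMM factors multiply library size to allow for differences in composition. They were 1.12 and 1.34 in siEZH2 libraries and 0.704 and 0.945 in siCTRL libraries, and every scaled level and fold change depends on them. The targeted gene gave no check of the labels, since EZH2 held 60 and 131 counts in the libraries labelled siEZH2 and 39 and 59 in those labelled siCTRL, and every direction below is that of the labels. No row passed the test over the table: 0% of 24431 rows had an adjusted p under 0.05 (edgeR quasi-likelihood test with Benjamini-Hochberg adjustment), while 16.4% had an unadjusted p under 0.05. DESeq2, on the same filtered rows, called 905 of the 4538 rows for which it gave an adjusted p as lower (19.9%) and 8 as higher (0.176%). Luminal prostate markers had 8 of 8 rows tested, with 12006 to 22741 counts summed over them in the siEZH2 libraries, against 21795 to 22178 in the siCTRL libraries. KRT8 made up 83.7% to 90% of each of these sums. The row of KRT8 overlaps KRT18, another of these markers, on the opposite strand. All 8 markers had a negative log2 fold change, as did 94.7% of 1835 rows of like counts, and 4 had an unadjusted p under 0.05. Their median was -0.96, beside -0.74 for rows of like counts. It was -0.22, with 6 negative, when scaled on well-covered rows alone, those of 200 counts or more in at least 2 of the libraries. Nearly all rows at this level were negative, so a sign shared with SYNC does not set these markers apart. The part of the markers in the value of SYNC was not tested. Fibroblast, leukocyte, endothelial and muscle marker rows (17 in the table) were not empty. Summed counts were 269 and 304 against 108 and 211 for the 5 fibroblast rows. The 4 leukocyte rows held 366 and 453 in siEZH2 libraries, most of it under CD68, against 453 and 400 in siCTRL libraries. The 3 endothelial rows held 164 and 164 against 36 and 113, and the 5 muscle rows 123 and 220 against 102 and 169. At 0 counts stood ACTA1, MYH2 and DES in siCTRL replicate 1, and CD14 there too. Per kb of row length the fibroblast rows held 4.48 to 9.73 counts in siEZH2 libraries and 1.78 to 5.99 in siCTRL libraries. Olfactory receptor rows, described below, held 4.70 and 6.34 in siEZH2 libraries and 1.32 and 3.15 in siCTRL libraries. CD68 stood higher, at 145 and 185 in siEZH2 libraries and 201 and 168 in siCTRL libraries. All libraries came from the same line, and the part of other cell types in the values below was not tested. These are bulk samples, in which fewer cells of a type and less RNA per cell cannot be told apart.

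Which strand of RNA the rows count is not given in the sources used here, and this touches every value of the report. Placed coding rows of like counts to SYNC (a mean count within a factor of 2) mostly had a coding gene on the other strand. Of 76 such coding rows, 70 face a coding gene (92.1%), against 21.0% of all 15304 tested coding rows that were placed. FTH1, a ferritin gene that most cells express strongly, held 453 and 371 counts in siEZH2 libraries and 326 and 415 in siCTRL libraries. BEST1, an ion channel gene known from the retinal pigment epithelium, faces FTH1 over 1267 exonic bases and held 265907 and 226416 counts in siEZH2 libraries and 213179 and 191839 in siCTRL libraries. SPAG5, a spindle protein gene, held 53 and 101 counts in siEZH2 libraries and 73 and 52 in siCTRL libraries. SPAG5-AS1 on the other strand held 5228 and 4769 in siEZH2 libraries and 8025 and 7509 in siCTRL libraries. That row also faces other coding genes, so its counts cannot be set against SPAG5 alone. If the rows hold the strand opposite to the gene they are named after, counts under SYNC are reads of the RBBP4 strand over SYNC exons, counts under RBBP4 are reads of the SYNC strand over RBBP4 exons, and a row that faces no gene holds antisense reads alone. The values are therefore given as counts under a row and not as expression of the named gene, for EZH2 and for every list too.

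Counts under SYNC were by far the highest of the 4 rows, and they were lower in both libraries labelled siEZH2. SYNC held 7133 and 6830 counts in the siEZH2 libraries, against 11944 and 9809 in the siCTRL libraries. The groups did not overlap, in deposited counts or in scaled levels. Deposited counts lay apart in this direction for 12.8% of tested rows. Scaled levels averaged 932 ± 123 CPM in siEZH2 libraries and 2013 ± 670 CPM in siCTRL libraries (CPM, counts scaled to the size of the library, SD, n = 2 each). The difference on the log2 scale was -1.11 ± 0.47 (SE) and did not pass the test (edgeR adjusted p = 0.269, unadjusted p = 0.0284). DESeq2 did call it lower, at -1.25 with an adjusted p of 0.0215, as it did 19.9% of the rows it judged. Non-overlapping groups with lower levels in siEZH2 were found for 22.9% of all tested rows, so this alone does not set SYNC apart.

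The SYNC row was among the highest of the table. By mean counts SYNC stood 82nd of all rows, above 99.9% of them, and by counts per kb of row length, scaled to the same sum in every library (TPM), it stood 272nd. In TPM it reached 343 and 354 in siEZH2 libraries and 524 and 460 in siCTRL libraries. Counts per kb of row length were 1916 and 1835 against 3209 and 2635. For comparison, 380 olfactory receptor rows, genes that are mostly silent outside the nose, together held 4.70 and 6.34 counts per kb in siEZH2 libraries and 1.32 and 3.15 in siCTRL libraries. The genes of the muscle proteins that syncoilin binds were lower per kb. DES, which encodes desmin, had 2.41 and 15.7 counts per kb in siEZH2 libraries and 0 and 4.02 in siCTRL libraries, and was not tested. DTNA, which encodes alpha-dystrobrevin, had 8.52 and 5.95 in siEZH2 libraries and 1.66 and 5.54 in siCTRL libraries.

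Counts under RBBP4, the chaperone on the other strand, were few, and no difference beyond their spread was detectable. RBBP4 had 180 and 86 counts in the siEZH2 libraries and 112 and 141 in the siCTRL libraries. Within siEZH2 the values lay on either side of both siCTRL values, so the groups overlapped. Scaled levels were 18.2 ± 10.7 CPM in siEZH2 libraries and 22.7 ± 0.842 CPM in siCTRL libraries (SD, n = 2 each), giving a log2 fold change of -0.32 ± 0.47 (SE, edgeR adjusted p = 0.738). A single library decided its size, since without siEZH2 replicate 1 it was -1.18 and without siEZH2 replicate 2 it was 0.16. Per kb the RBBP4 row held 19.0 and 9.08 counts in siEZH2 libraries and 11.8 and 14.9 in siCTRL libraries. That is 4.05 and 1.43 times the olfactory receptor level of the same siEZH2 libraries, and 8.99 and 4.72 times that of the siCTRL libraries.

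RBBP7 had 132 and 172 counts in the siEZH2 libraries, against 154 and 172 in the siCTRL libraries, so that deposited counts overlapped and met at their upper value. After scaling the levels were 20.1 ± 1.71 CPM in siEZH2 libraries and 29.5 ± 3.58 CPM in siCTRL libraries (SD, n = 2 each) and no longer overlapped, as for the 22.9% of all tested rows that lay apart and lower. The log2 fold change came to -0.56 ± 0.42 (SE, edgeR adjusted p = 0.494). Whether its scaled groups separate thus rests on the scaling factors. Per kb the row held 18.0 and 23.4 counts in siEZH2 libraries and 21.0 and 23.4 in siCTRL libraries, 3.83 and 3.70 times the olfactory receptor level in siEZH2 and 15.9 and 7.43 times it in siCTRL.

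TXLNG, the neighbour of RBBP7, had the fewest counts of the 4 rows. It held 40 and 43 counts in the siEZH2 libraries and 23 and 39 in the siCTRL libraries. Deposited counts did not overlap and were higher in siEZH2, as for 40.4% of tested rows, but scaled levels did overlap, at 5.52 ± 0.281 CPM in siEZH2 libraries and 5.45 ± 0.942 CPM in siCTRL libraries (SD, n = 2 each). On the log2 scale the fold change was 0.01 ± 0.65 (SE, edgeR adjusted p = 0.994). Its 8.98 and 9.65 counts per kb in siEZH2 libraries and 5.16 and 8.75 in siCTRL libraries were 1.91 and 1.52, and 3.92 and 2.78, times the olfactory receptor level. A difference was not detectable at this depth and spread.

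Per length the order of the 4 rows differed between libraries below SYNC. RBBP7 stood at 3.22 and 4.52 TPM in siEZH2 libraries and 3.43 and 4.09 TPM in siCTRL libraries. RBBP4 stood at 3.40 and 1.75 TPM in siEZH2 libraries and 1.93 and 2.60 TPM in siCTRL libraries. TXLNG stood at 1.61 and 1.86 TPM in siEZH2 libraries and 0.844 and 1.53 TPM in siCTRL libraries. The 4 libraries' values of RBBP7 and RBBP4 overlapped, as did those of RBBP4 and TXLNG, while SYNC lay far above all of them and RBBP7 above TXLNG in each library.

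**Figure D2:**
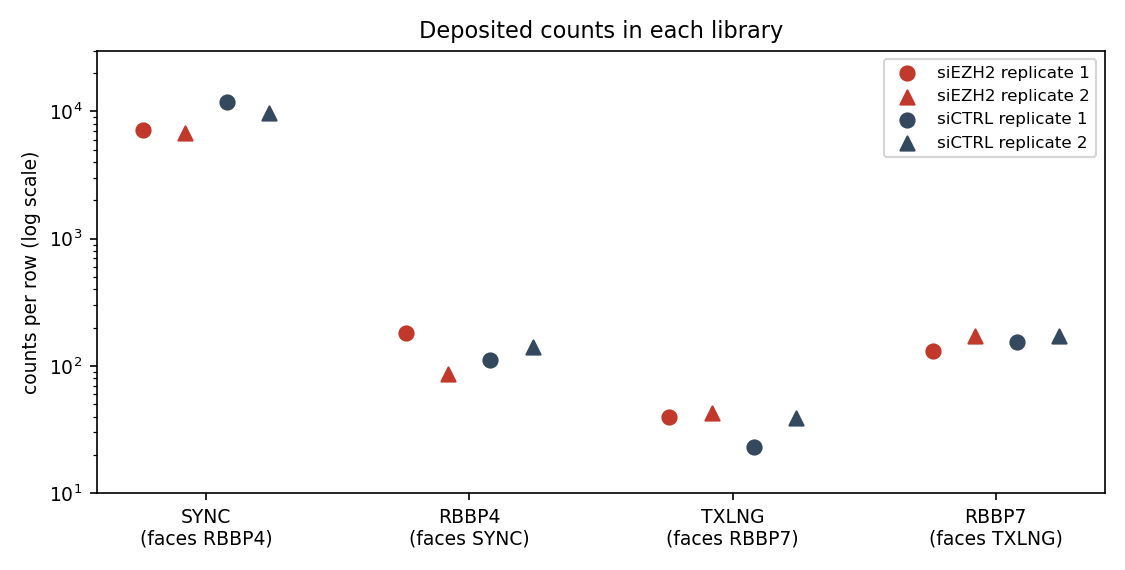
Deposited counts under each of the 4 rows in each library, on a log axis, with siEZH2 libraries in red and siCTRL libraries in dark blue, circles for replicate 1 and triangles for replicate 2. SYNC lies between 6830 and 11944 counts, while RBBP4 lies between 86 and 180, TXLNG between 23 and 43 and RBBP7 between 132 and 172.

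In both pairs the minus-strand row held more counts, which was the neighbour SYNC in the first pair and the chaperone RBBP7 in the second. With the counted strand not given, each share and ratio is that of 2 rows, and with the strands turned the larger part of the first pair's counts would be reads of the RBBP4 strand. In the first pair nearly all counts lay under SYNC. Its share of the pair's counts was 97.5% (exact 95% interval 97.2 to 97.9) and 98.8% (98.5 to 99.0) in the siEZH2 libraries, against 99.1% (98.9 to 99.2) and 98.6% (98.3 to 98.8) in the siCTRL libraries. SYNC had 39.6 and 79.4 times the counts of RBBP4 in siEZH2 libraries and 107 and 69.6 times in siCTRL libraries, and per kb of row length 101 and 202 times in siEZH2 libraries and 271 and 177 times in siCTRL libraries. In the second pair most counts lay under RBBP7. The share under TXLNG was 23.3% (17.2 to 30.3) and 20% (14.9 to 26.0) in siEZH2 libraries, against 13.0% (8.42 to 18.9) and 18.5% (13.5 to 24.4) in siCTRL libraries. RBBP7 held 3.30 and 4 times the counts of TXLNG in siEZH2 libraries and 6.70 and 4.41 times in siCTRL libraries. These intervals cover counting error only.

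The ratio within a pair does not depend on the scaling factors, because both rows come from one library. The log2 ratio of SYNC to RBBP4 was 5.80 ± 0.71 in siEZH2 libraries and 6.42 ± 0.43 in siCTRL libraries (SD, n = 2 each), a difference of -0.62. The values overlapped (exact two-sided permutation test, p = 0.667), and the difference ran from -1.12 without siEZH2 replicate 2 to -0.12 without siEZH2 replicate 1. The log2 ratio of TXLNG to RBBP7 was -1.85 ± 0.20 in siEZH2 libraries and -2.42 ± 0.42 in siCTRL libraries (SD, n = 2 each), a difference of 0.57. Here the values did not overlap (exact two-sided permutation test, p = 0.333). With 2 libraries against 2 that is the smallest p the test can give, so neither ratio could pass. No share of other pairs lying apart is given here, so the lack of overlap does not set this pair apart. Without siCTRL replicate 1 the difference was 0.28.

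Summing the 2 rows of a pair gives a level that is the same whichever strand a read of the shared exons was given to. Reads from exons that are not shared still depend on the strand counted. The shared part is 48.9% of SYNC and 18.0% of RBBP4 exons, but only 4.01% of TXLNG and 2.42% of RBBP7 exons. For SYNC and RBBP4 the summed log2 CPM was 9.88 ± 0.20 in siEZH2 libraries and 10.95 ± 0.48 in siCTRL libraries (SD, n = 2 each), a difference of -1.07. For TXLNG and RBBP7 it was 4.68 ± 0.08 in siEZH2 libraries and 5.13 ± 0.11 in siCTRL libraries (SD, n = 2 each), a difference of -0.45. Neither pair's sums overlapped between the groups (exact two-sided permutation test, p = 0.333 for each, the smallest possible). Scaled levels of single rows lay apart and lower in siEZH2 for 22.9% of all tested rows. SYNC held 97.5% to 99.1% of the first sum, so that difference largely repeats the SYNC row. When library sizes were scaled on well-covered rows alone, the first difference became -0.36 and the second 0.26.

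The difference of each row has to be read beside rows of like counts and beside the scaling. The median log2 fold change of all tested rows was 0.22, and 43.3% were negative. Among the 173 rows with a mean count within a factor of 2 of that of SYNC, however, 99.4% were negative, with a median of -0.73 and an interquartile range of -0.88 to -0.53. SYNC at -1.11 lay below most of them, with 8.09% lower still. RBBP4 and RBBP7 lay in the middle of their own classes. Of 4180 rows with counts like RBBP4 the median was -0.36, and 51.7% were lower than RBBP4. Of 3395 rows with counts like RBBP7 the median was -0.50, and 45.7% were lower than RBBP7. TXLNG stood below the median of 0.46 of its 11552 like rows, of which 32.6% were lower. Scaling on well-covered rows alone moved the median of all tested rows by 0.66. The values were then -0.37 for SYNC, 0.32 for RBBP4, 0.67 for TXLNG and 0.16 for RBBP7, so that SYNC alone of the 4 kept a negative sign. Relative to the median of all rows, the 4 differences were -1.33, -0.54, -0.20 and -0.77 with the first scaling and -1.25, -0.56, -0.21 and -0.72 with the second, in the order SYNC, RBBP4, TXLNG and RBBP7. They moved with the rows and libraries used. With at least 50 counts in 2 libraries they were -0.69 for SYNC, 0.04 for RBBP4 and -0.15 for RBBP7, and without siCTRL replicate 2 SYNC was at -2.19.

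**Figure D3:**
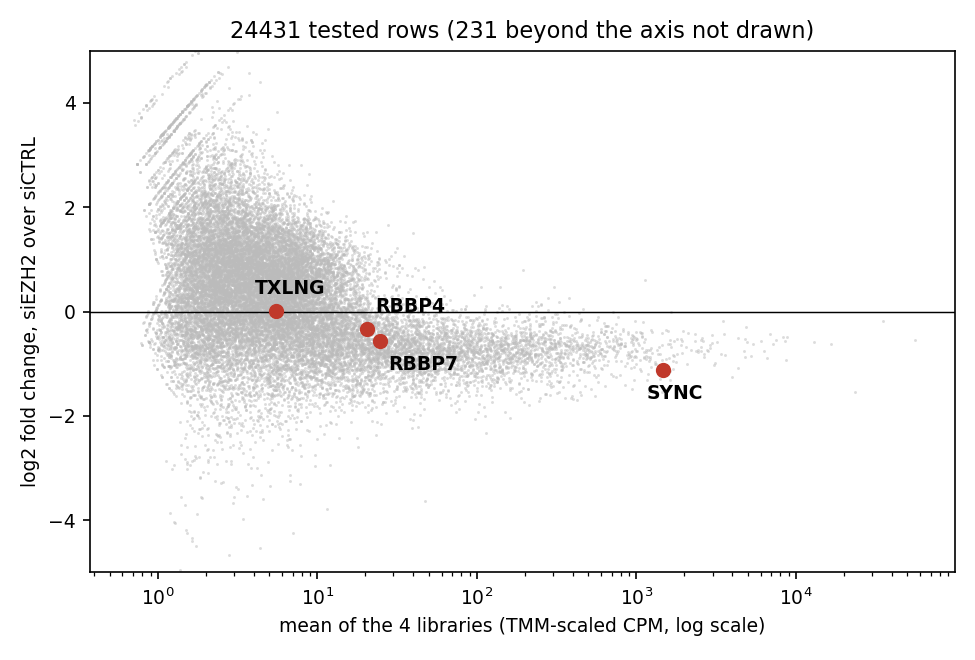
Log2 fold change (siEZH2 over siCTRL) against mean scaled level in CPM on a log axis, with 1 grey point per tested row (24431 rows, of which 231 beyond ±5 are not drawn) and the 4 rows described here in red. SYNC lies at -1.11 in the sparse right part, where nearly all rows are negative, and the other 3 lie within the main cloud.

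RBBP4 also has processed copies in the genome that could take reads from it. The table has 6 rows named as RBBP4 pseudogenes and 0 named as RBBP7 pseudogenes. Together the 6 held 63 and 70 counts in siEZH2 libraries, against 15 and 14 in siCTRL libraries, so both siEZH2 values were higher, as were deposited counts in 40.4% of tested rows and the olfactory receptor level. RBBP4P5 held most, with 12 and 26 counts against 2 and 4, and was the 1 row of these that was tested (log2 fold change 2.19, edgeR adjusted p = 0.376). RBBP4P4 was next, with 25 and 6 counts against 2 and 2. How reads that fit both the gene and a copy were counted is not given in the sources used here, so counts under RBBP4 are uncertain to that extent.

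Rows with the pattern most like each of the 4 across the 4 libraries were looked for among tested rows of similar level (mean CPM within a factor of 2). The measure was the root mean square difference of log2 CPM, each row centred on its own mean. For SYNC, GYG1, which encodes glycogenin, was nearest at 0.056, with 5929 and 6038 counts in siEZH2 libraries and 10112 and 7784 in siCTRL libraries. SPAG5-AS1 followed at 0.071, where the median of 167 candidates was 0.25. Unlike most coding rows with counts like SYNC, GYG1 faces no coding gene. MARVELD1 (0.038) and RHOT1 (0.042) were nearest to RBBP4, CKAP4 (0.024) and ZNF584 (0.034) to TXLNG, and ACTG1 (0.013) and PSTK (0.015) to RBBP7. ACTG1, a cytoplasmic actin gene, held 208 and 275 counts against 240 and 269. Those 3 rows had 3222 to 11254 candidates, over 4 libraries.

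The 6 lists of chromatin partners hold other subunits of the complexes with RBBP4 and RBBP7. They also hold further H3 and H4 chaperones and related ISWI subunits that are not part of those complexes. Of the 67 tested rows of these lists, edgeR called 0 higher or lower, as it did 0% of all rows. Among the 67, 6 had an unadjusted p under 0.05, a smaller share than the 16.4% of all rows. DESeq2 gave an adjusted p for 20 of them and called 3, the MuvB gene LIN9, MYBL2 and the SIN3 subunit gene SAP18, all lower, where it called 19.9% of all its rows lower. By limma-voom 1 was called, MYBL2. In edgeR's fit LIN9 was at -1.27 and SAP18 at -1.26. The other PRC2 subunits, EZH2 included, had 9 of 11 rows tested, 8 with a positive and 1 with a negative log2 fold change. Of rows of like counts 34.5% were negative. EZH2, the targeted gene, was among the 8 positive rows, at 0.51 ± 0.52 (SE, edgeR adjusted p = 0.621). The median of the 9 rows was 0.62, beside 0.22 for all tested rows and 0.39 for rows of like counts. The median was 1.24 with the scaling on well-covered rows, and it was 0.34 without siCTRL replicate 1 and 0.97 without siCTRL replicate 2. EZH1, the paralogous methyltransferase, was the most positive at 1.02 ± 0.68 (SE), on 55 and 53 counts against 12 and 29. EED, the subunit that reads the methyl mark, was the negative one at -0.47, on 67 and 59 counts against 64 and 64. RBBP4 and RBBP7, at -0.32 and -0.56, were thus on the side of EED, but all 3 became positive when scaled on well-covered rows, EED at 0.24.

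The balance of signs in the deacetylase complexes turned with the scaling. NuRD had 12 of 13 rows tested, 5 positive and 7 negative, beside 43.3% negative over all rows. Its median was -0.43, beside 0.19 for rows of like counts. With the scaling on well-covered rows 9 were positive and 3 negative, and the median was 0.31. Its remodeler CHD4 was the most negative at -1.08 ± 0.47 (SE), on 57 and 93 counts in siEZH2 libraries and 123 and 102 in siCTRL libraries. MTA3, a NuRD scaffold, was the most positive at 0.70, on 48 and 103 against 23 and 46. SIN3 had 14 of 15 rows tested, 5 positive and 9 negative, with a median of -0.15, beside 0.30 for rows of like counts. With the other scaling 10 were positive and 4 negative, and the median was 0.57. SAP30, a small SIN3 subunit, was at -1.61 on 19 and 10 counts against 37 and 28, and ARID4B at 1.31 on 72 and 138 against 21 and 42. The row of ARID4B overlaps GGPS1 on the opposite strand. HDAC1 and HDAC2, the deacetylases of both complexes, were at -0.75 and 0.48, and at -0.0055 and 1.19 with the other scaling.

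The remaining chromatin partners were also mixed. Chaperones of H3 and H4 with HAT1 had 17 of 17 rows tested, 6 positive and 11 negative. Their median was -0.21 (0.49 with the scaling on well-covered rows), beside -0.07 for rows of like counts. ASF1B, which hands new histones to CAF-1, was the most negative at -1.25 on 20 and 24 counts against 50 and 23, and HIRA, the chaperone of replication-independent H3.3, the most positive at 0.90 on 34 and 8 against 5 and 13. CHAF1A and CHAF1B, the CAF-1 partners of RBBP4, were at -0.31 and -0.09, and HAT1, the partner of RBBP7, at 0.57. With the scaling on well-covered rows these 3 were at 0.49, 0.62 and 1.22, in that order. NURF and related ISWI subunits had 4 positive and 3 negative rows of 7, from BAZ1B at -0.47 to CECR2 at 1.17. Beside 0.24 for rows of like counts, their median was 0.14. Leaving out siCTRL replicate 1 turned that median to -0.38, leaving out siCTRL replicate 2 gave 0.56, and it was 0.75 with the scaling on well-covered rows. MuvB and DREAM subunits had 10 of 11 rows tested, 3 positive and 7 negative. Their median was -0.28 (0.40 with the other scaling), beside 0.33 for rows of like counts. MYBL2, the B-Myb factor that joins MuvB in proliferating cells, was the most negative at -2.15 ± 0.45 (SE), on 48 and 92 counts in siEZH2 libraries against 177 and 284 in siCTRL libraries (edgeR adjusted p = 0.165). RBL1, the p107 pocket protein, was the most positive at 0.59.

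**Figure D4:**
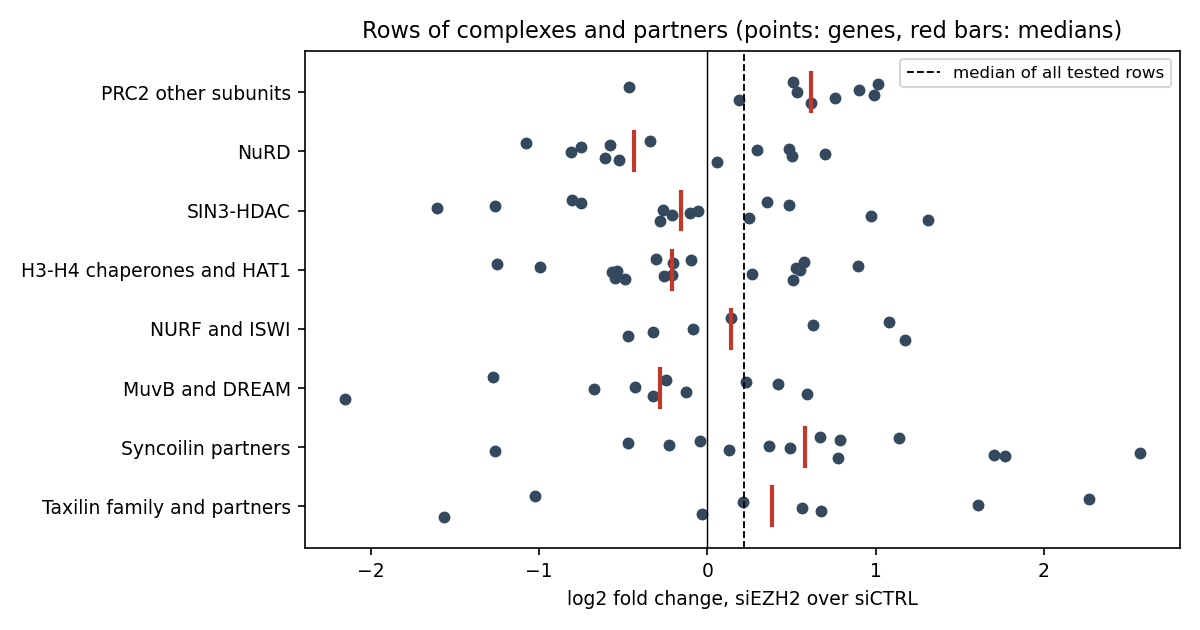
Log2 fold change (siEZH2 over siCTRL) of each tested gene of 8 lists, one point per gene, with the list median as a red bar and the median of all tested rows (0.22) as a dashed line. PRC2 subunits other than RBBP4 and RBBP7, with the targeted EZH2 among them, lie mostly right of 0. Their median is 0.62, and the NuRD median is -0.43.

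No partner of the facing genes was called higher or lower by edgeR. Syncoilin partners had 14 of 15 rows tested, 10 positive and 4 negative, with a median of 0.58, beside 0.32 for rows of like counts. The median was 1.23 with the scaling on well-covered rows and 0.32 without siEZH2 replicate 1. SGCA, a sarcoglycan gene, was the most positive at 2.57 ± 1.07 (SE), on 20 and 45 counts against 2 and 6. NES, which encodes the intermediate filament nestin, was the most negative at -1.26, on 21 and 16 against 21 and 48. The taxilin family and the partners of its members had 5 positive and 3 negative rows of 8, with a median of 0.39, beside 0.38 for rows of like counts. It was 1.08 with the scaling on well-covered rows and 0.04 without siEZH2 replicate 1. TXLNB, the muscle taxilin, was the most positive at 2.27, on 30 and 18 counts against 5 and 2. ATF4, the stress-response factor that gamma-taxilin binds, was the most negative at -1.57 ± 0.49 (SE), on 40 and 55 counts in siEZH2 libraries against 96 and 110 in siCTRL libraries (edgeR adjusted p = 0.193). Of these 22 tested rows edgeR called 0, with 4 at an unadjusted p under 0.05 (16.4% of all rows were), and limma-voom called 0. DESeq2 gave an adjusted p for 1 of them and called 0.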

How the data were processed

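Counts were used as the authors deposited them: whole numbers for each gene row and library, neither normalised nor pooled, beside the row's length in bases. Columns and groups were matched to libraries by the sample titles. Per the submitters' processing notes, the tools included featureCounts 2.0.3 and STAR 2.7.10b, beside limma and edgeR, on build GRCh38, with no role or order given. The strand option of the counting, like its annotation release, is not given in the sources used here. A stranded kit counted with the opposite setting would give reads of shared exons to the facing row and leave antisense reads in all other rows, which would change the meaning of every row. Rows were placed on GENCODE 29 by symbols that occur once (37665 rows, 63.4%).

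Rows were filtered by filterByExpr, scaled by TMM and compared with glmQLFit and glmQLFTest (edgeR 4.0.16, R 4.3.3), with Benjamini-Hochberg adjustment over 24431 rows and calls at 0.05. Each standard error is the fold change divided by the root of its F value. Simulated counts were used to test the fits. Pair ratios used a pseudocount of 0.5, and intervals on shares are exact binomial at 95%. Total counts of 6162123 to 6867542 per library limit what low rows can show. Alternatives were other scaling factors, filters, pseudocounts, DESeq2 1.42.0, limma-voom (limma 3.58.1), a replicate block and each library left out. The members and the 13 lists were chosen with earlier results of these data known, and the windows of like counts, their share of rows that face a gene, the olfactory receptor rows and the classes of overlap length after values had been seen. Named genes were the 4 members, EZH2, RBBP4 pseudogenes, the extremes of each list, the 2 rows nearest each member and the pairs nearest in overlap. Other genes named were chosen for their known role, with values seen: DES, DTNA, HDAC1, HDAC2, CHAF1A, CHAF1B, HAT1, CD68, KRT8, FTH1, BEST1 and SPAG5. LIN9 and SAP18 were named because DESeq2 called them. Shares and permutation tests were computed with scipy 1.17.1 (Python 3.11.15, numpy 2.4.6), tables with pandas 2.3.3 and figures with matplotlib 3.10.9.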

Additional observations from a re-analysis of the deposited data

How the results depend on the processing

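SYNC kept a negative log2 fold change in all 12 alternatives, from -1.49 to -0.37, and passed the test in 2 of them: DESeq2 (-1.25, adjusted p = 0.0215) and the replicate block (-1.08, adjusted p = 0.000614). Deviations of same-numbered libraries from their group means had a correlation of 0.0502 over the tested rows. A single such value cannot show whether the numbers pair the libraries. In both groups replicate 2 had more rows with at least 10 counts. The numbers are not taken as pairs, and the cause of the second call was not tested. Leaving out a library gave -1.49 to -0.79 for SYNC, -1.18 to 0.16 for RBBP4, -0.22 to 0.13 for TXLNG and -0.76 to -0.50 for RBBP7. RBBP4 turned to 0.32 with scaling on well-covered rows and 0.042 with at least 50 counts in 2 libraries, and RBBP7 to 0.16 with the first of these. TXLNG turned to -0.10 with RLE factors and with DESeq2, -0.025 with upper-quartile factors, -0.064 without a low-count filter and -0.0045 with limma-voom, and it could not be fitted with at least 50 counts in 2 libraries. With scaling on well-covered rows the summed difference was -0.36 for SYNC and RBBP4 and turned to 0.26 for TXLNG and RBBP7. Over the 13 lists and 12 alternatives, 44 of 156 medians moved and 11 changed sign. Over the whole table, calls numbered 0 with edgeR, 13 with RLE factors, 80 without a filter, 1327 with the replicate block, 913 with DESeq2, 345 with limma-voom and 1 to 234 with a library left out. In the replicate block the ratio differences within pairs were -0.62 and 0.57 and the summed differences -1.07 and -0.45, as without it. Leaving out a library gave -1.12 to -0.12 and 0.28 to 0.87 for the ratios, and -1.41 to -0.72 and -0.53 to -0.37 for the sums. Counts of 23 to 43 under TXLNG limit what that row can show.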

Other observations

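Opposite-strand coding pairs elsewhere in the table show how the 2 chaperone pairs compare with others. There were 994 pairs of placed coding rows that face each other and no other coding gene over at least 100 bases, of which 780 had a summed mean count of at least 100 (464 of these meet tail to tail). In the 780 pairs the row with more counts held a median of 86.6% of the pair's counts, and in 39.5% of pairs it held at least 90%. By the size of the imbalance SYNC and RBBP4 stood 34th and TXLNG and RBBP7 449th. Among tail-to-tail pairs the median share of the larger row was 83.7% in 129 pairs with under 300 shared bases, 85.4% in 199 with 300 or more but under 1000, and 86.6% in 136 with 1000 or more. Pairs are not independent replicates, and no test was made.

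The pairs nearest in overlap length gave other divisions. LRRC14 and LRRC24 share 1699 bases, close to the 1706 of SYNC and RBBP4. LRRC14 held 818 and 938 counts in siEZH2 libraries and 964 and 1167 in siCTRL libraries, and LRRC24 held 403 and 588 against 893 and 627, so that the larger row had 60.8% of the pair. DMTF1, a cyclin D-binding transcription factor gene, and TMEM243 share 178 bases, close to the 179 of TXLNG and RBBP7. There DMTF1 held 180 and 260 counts in siEZH2 libraries and 391 and 298 in siCTRL libraries, 77.8% of the pair, against 81.3% for RBBP7 in its own. The log2 ratio of the larger to the smaller row was lower in siEZH2 than in siCTRL libraries in 62.6% of the 780 pairs, with a median difference of -0.27 and an interquartile range of -0.90 to 0.23. Both chaperone pairs lay within that range, at -0.62 for SYNC over RBBP4 and -0.57 for RBBP7 over TXLNG.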
